A study of Gallus gallus with 10 samples.

Results

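The genes described here were chosen as genes of red cells and thrombocytes, and some of them are also made by other cells. They are the alpha globins HBAD and HBA1, the beta globin HBBA, the beta tubulin TUBB1, the A subunit of coagulation factor XIII (F13A1) and the transcription factor TAL1, each taken by its common name in a table of 24355 genes. GATA1 belongs to the same set of 7 symbols, but no row carried that name, so it was not analysed here and 6 genes remained. Their levels were compared between 5 choroids kept with PAPA-NONOate, a nitric oxide donor, and 5 control choroids without it. The choroid is the blood vessel layer behind the retina, taken here as whole tissue from normal eyes, with post-hatch day 15 given as the age and Domesticus as the strain. Treated choroids were incubated with the donor at 1.5 mM for 24 hours at 37 °C and 5% CO2. The labels repeat that incubation text for the controls and name them minus PAPA-NONOate in their titles, without saying what the controls were incubated in. Every treated sample has the letter R and every control the letter L, with the same replicate numbers 2, 3, 4, 5 and 8, so whatever the letters stand for cannot be told apart from the treatment. The study asked how nitric oxide alters gene expression in this tissue. Whether replicates were separate animals is not stated in the labels, and every p-value below is therefore one for the spread among these libraries, which may be technical.

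Birds keep the nucleus in mature red cells, and their thrombocytes, the counterpart of mammalian platelets, are nucleated cells too. Haemoglobin of adult chicken joins beta chains with alpha chains of the alpha-A type (HBA1) or the alpha-D type (HBAD), and the alpha and beta genes lie in separate clusters. TAL1 and GATA1 act together in complexes that turn on red cell and megakaryocyte genes, and TAL1 is also made by endothelium. The whole choroid is a blood-filled tissue, so its RNA includes that of the blood cells left in its vessels. In such bulk RNA fewer cells of a type and less RNA per cell cannot be told apart.

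Levels are FPKM as deposited, that is fragments scaled to transcript length and library total. They hold no read counts, so the depth of each library is unknown. Summed FPKM was 394921 to 535194 in treated libraries and 470676 to 605493 in controls. The test across genes was limma on log2(FPKM + 0.5), with p-values adjusted by the Benjamini-Hochberg method over the 11357 genes that reached 1 FPKM in at least 5 libraries. It called 1061 genes (9.34%) at an adjusted p of 0.05, of which 219 (1.93%) were higher and 842 (7.41%) lower with PAPA-NONOate. The median gene had a log2 fold change of -0.18, and median-ratio scaling of the libraries, which removes that shift, gave 798 higher and 731 lower. The endothelial marker PECAM1 was at 93.5 ± 25.4 FPKM with PAPA-NONOate and 89.1 ± 14.0 FPKM in controls (SD, n = 5 each), and RPE65, of the neighbouring pigment epithelium, reached at most 0.220 FPKM with PAPA-NONOate and 0.199 FPKM in controls. PECAM1 does not stand for all endothelial genes: of 18 tested endothelial markers 0 were called higher and 3 lower, as given below.

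Globin transcripts were abundant in every library, and all 3 globins averaged higher with PAPA-NONOate, but the groups overlapped for each of them and none passed the test as deposited. TUBB1 and F13A1 were called lower, without overlap, and HBAD, HBA1, HBBA and TAL1 were not called. Of all tested genes 9.34% were called in either direction, 7.48% were lower in every treated library than in any control and 1.84% higher. F13A1 reached the filter only through the controls and could hardly have entered the test without being lower, so nothing is read from a count of the 6 genes against these shares.

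HBBA, the adult beta chain (ENSGALG00000047152), had 1004, 1102, 831, 1499.5 and 1516 FPKM in PAPA-NONOate replicates 2, 3, 4, 5 and 8, against 704, 367, 851, 2078 and 724 FPKM in control replicates 2, 3, 4, 5 and 8. The highest library of all was control replicate 5 and the lowest control replicate 3, so the treated libraries lay within the range of the controls. HBA1 (ENSGALG00000043234), the major adult alpha chain, had 326, 312, 229, 419 and 463 FPKM with PAPA-NONOate, against 194, 83.0, 278, 541 and 147 FPKM in controls, in the same order of replicates. Again control replicates 5 and 3 were the extremes. HBAD (ENSGALG00000031597), the minor adult alpha chain, had 102, 115, 59.9, 118 and 131 FPKM with PAPA-NONOate, against 48.8, 22.1, 42.2, 109 and 50.4 FPKM in controls. For HBAD all 5 treated libraries lay above the control median and 3 of them above the highest control, replicate 5.

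**Figure D1:**
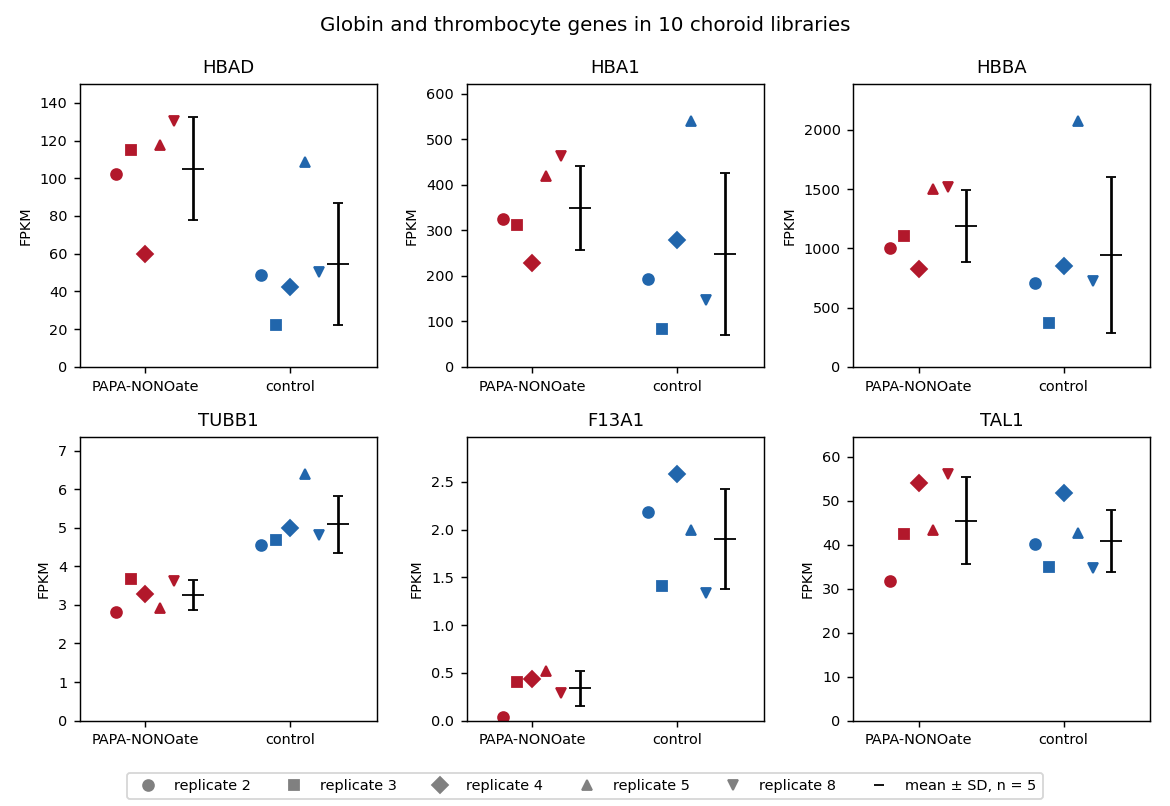
Level in FPKM (vertical axis, linear from 0) of the 6 genes in each of 5 PAPA-NONOate and 5 control libraries, with 1 symbol per replicate number and the mean ± SD beside each group. TUBB1 and F13A1 are lower in every treated library than in any control, while the globins and TAL1 overlap, with control replicate 5 the highest control for each globin (2078 FPKM for HBBA).

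By group, HBAD averaged 105 ± 27.2 FPKM with PAPA-NONOate and 54.5 ± 32.4 FPKM in controls (SD, n = 5 each). Its log2 fold change was 1.08 (SE 0.34, 95% interval 0.35 to 1.81, limma adjusted p = 0.0635), or 1.26 after median-ratio scaling (adjusted p = 0.0412). HBA1 averaged 349.7 ± 92.4 FPKM with PAPA-NONOate and 248 ± 178 FPKM in controls (SD, n = 5 each), with a log2 fold change of 0.73 (95% interval -0.12 to 1.59, limma adjusted p = 0.246). For HBBA the averages were 1191 ± 306 FPKM with PAPA-NONOate and 945 ± 658 FPKM in controls (SD, n = 5 each), with a log2 fold change of 0.53 (95% interval -0.25 to 1.31, limma adjusted p = 0.355). A positive log2 fold change was seen for 25.9% of tested genes. The differences of HBA1 and HBBA were thus within the spread between replicates, which in the controls was widest at replicates 3 and 5. Without control replicate 5 the log2 fold changes were 1.37 for HBAD (adjusted p = 0.0133, against 0.0133 to 0.129 over all alternatives), 1.08 for HBA1 (0.0582, against 0.0582 to 0.460) and 0.87 for HBBA (0.0641, against 0.0641 to 0.645). Without control replicate 3 they were 0.80, 0.41 and 0.25. HBAD also passed without PAPA-NONOate replicate 4, its lowest treated library (1.27, adjusted p = 0.0428).

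**Figure D2:**
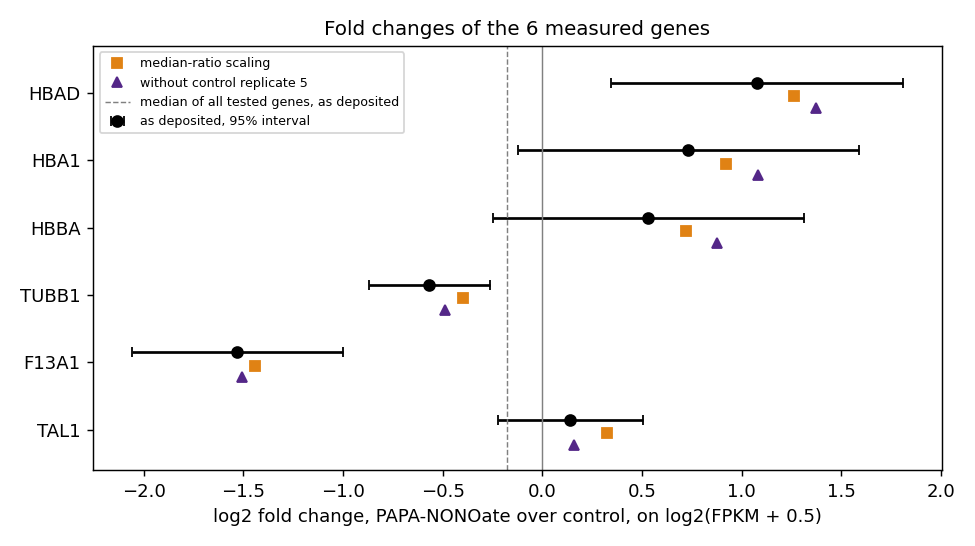
Log2 fold change of each gene, PAPA-NONOate over control, with its 95% interval from limma as deposited (circles), after median-ratio scaling (squares) and without control replicate 5 (triangles). The 3 globins lie to the right of 0, TUBB1 and F13A1 to the left, and the dashed line marks the median of all tested genes at -0.18.

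Other globins behaved unequally. HBE1, listed in RefSeq with the older name HBB-H and lying next to HBBA in the beta cluster, is a weakly expressed beta-type globin. It had 9.30, 15.2, 6.35, 14.6 and 11.8 FPKM in PAPA-NONOate replicates 2, 3, 4, 5 and 8, against 3.05, 2.60, 4.69, 12.5 and 5.19 FPKM in controls. As with HBAD, control replicate 5 was the one control that reached the treated range, apart from which every treated library was higher than every control. The log2 fold change of HBE1 was 1.11 (SE 0.35, limma adjusted p = 0.0651, against 0.00914 to 0.159 over its alternatives). The embryonic globins were near the limit of the table. HBZ, HBE and HBBR did not reach 1 FPKM in any library, the highest being 0.806 FPKM for HBZ in PAPA-NONOate replicate 8 and 0.790 FPKM for HBE in control replicate 8. Cytoglobin (CYGB), a globin of fibroblast-like cells and not of red cells, was at 18.9 ± 7.46 FPKM with PAPA-NONOate and 27.6 ± 5.48 FPKM in controls (SD, n = 5 each, limma adjusted p = 0.129). Globin genes are close relatives, and no source used here says how shared fragments were divided among them, so single globin levels are uncertain to that extent.

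Around the alpha globins, RefSeq (assembly GRCg7b, used for gene order only) places NPRL3 and MPG on one side and MRPL28 on the other. NPRL3, whose introns hold the main alpha globin enhancer in mammals, was at 6.93 ± 1.75 FPKM with PAPA-NONOate and 10.3 ± 1.10 FPKM in controls (SD, n = 5 each), a log2 fold change of -0.57 (limma adjusted p = 0.0580). MPG, a DNA glycosylase gene, was at -0.55 on that scale (adjusted p = 0.0759), and MRPL28, of the mitochondrial ribosome, at -0.18 (adjusted p = 0.481). RHBDF1, beyond MPG, was at 0.03 and AXIN1, beyond MRPL28, at -0.07 (adjusted p = 0.921 and 0.788). None of these 5 neighbours passed, and negative values were common, since 25.9% of tested genes had a positive one. On the beta side the olfactory receptor genes OR52R1 and OR51M1 were listed at 0 in all libraries.

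Within the globins the order of levels was the same in every library, HBBA above HBA1 above HBAD. HBAD made up 23.1 ± 2.44% of the summed alpha globin FPKM with PAPA-NONOate and 19.3 ± 4.67% in controls (SD, n = 5 each), with overlap. Beta exceeded alpha 2.63 ± 0.208 times with PAPA-NONOate and 3.19 ± 0.417 times in controls, also with overlap. Set against HBBA of the same library, however, HBAD did not overlap between the groups. There were 10.2, 10.4, 7.21, 7.86 and 8.61 FPKM of HBAD per 100 FPKM of HBBA in PAPA-NONOate replicates 2, 3, 4, 5 and 8, against 6.93, 6.03, 4.97, 5.23 and 6.96 in controls. The control with the most globin, replicate 5, is the second lowest of its group by this ratio. HBE1 stood at 0.764 to 1.38 per 100 FPKM of HBBA with PAPA-NONOate and at 0.433 to 0.717 in controls. Of all tested genes, 14 (0.123%) had a ratio to HBBA that was higher in every treated library than in any control. HBA1 did not share this, at 27.6 to 32.4 per 100 FPKM of HBBA with PAPA-NONOate and 20.3 to 32.7 in controls. These ratios are descriptions without a test. HBBA itself ran from 367 to 2078 FPKM in controls. Genes that do not follow it take on that spread in their ratio and tend to overlap. The 0.123% is therefore no like background for HBAD and HBE1, which moved with HBBA from library to library.

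From library to library within a group the globins moved together. Taking each library's deviation from its own group mean on the log2(FPKM + 0.5) scale, HBBA was at 1.37 in control replicate 5 and at -1.12 in control replicate 3, and HBA1 and HBAD did likewise. In treated libraries the same 3 genes were lowest in PAPA-NONOate replicate 4, at deviations of -0.76 for HBAD, -0.57 for HBA1 and -0.48 for HBBA. Over the 10 libraries the deviations of HBA1 and HBBA had a Pearson r of 0.968 and a Spearman rho of 0.879, and r was 0.859 when control replicates 3 and 5 were left out. For HBAD and HBBA r was 0.944, rho 0.879 and r without those 2 libraries 0.749. The alpha globins HBAD and HBA1 were less alike, with an r of 0.895, a rho of 0.709 and an r of 0.552 without those 2 libraries. TUBB1 was not tied to the globins in this way: its r with HBBA was 0.653, and 0.186 without the same 2 libraries. These correlations are descriptions of 10 libraries that share their normalization, and no p is given.

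**Figure D3:**
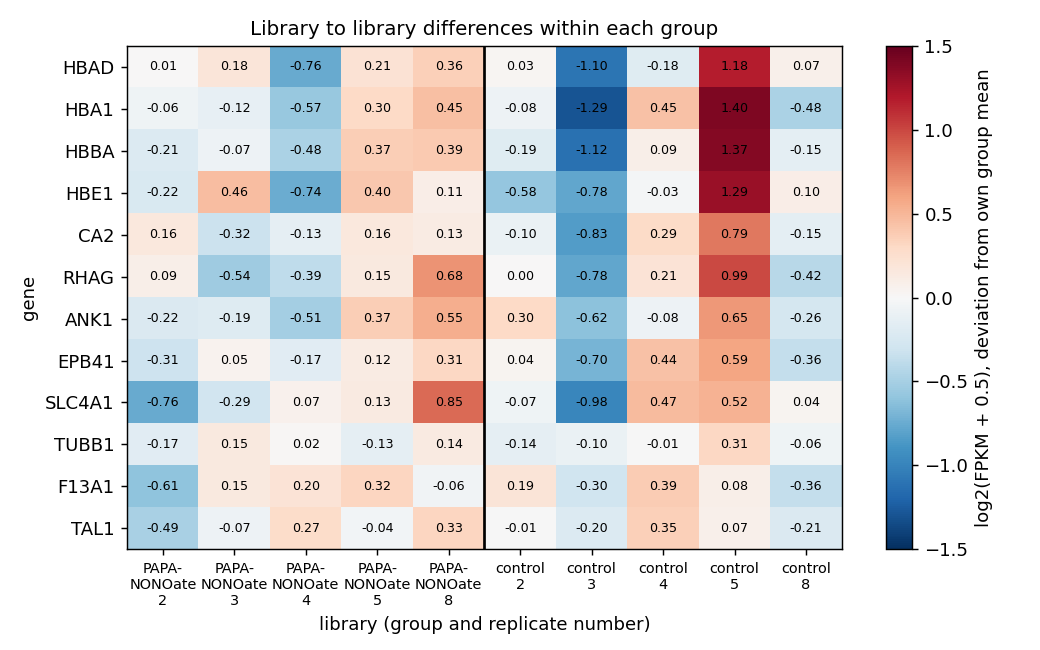
Deviation of each library from the mean of its own group, on the log2(FPKM + 0.5) scale, for globins, 5 other red cell genes and TUBB1, F13A1 and TAL1 (rows) in 5 PAPA-NONOate and 5 control libraries (columns). The globins, HBE1, CA2, RHAG, ANK1 and EPB41 are highest in control replicate 5 and lowest in control replicate 3, with HBBA at 1.37 and -1.12, while SLC4A1 is highest in PAPA-NONOate replicate 8.

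Genes whose deviations were most like the mean of the 3 globins, over the same 10 libraries, were TRIM27.1 (r = 0.917), the carbonic anhydrase gene CA2 (0.910), RHAG (0.890), HBE1 (0.884) and SPERT (0.883). RHAG encodes a Rhesus-family ammonium channel of the red cell membrane, and carbonic anhydrase 2 is abundant in red cells. In a list of 17 tested genes of red cell membrane and maturation, 4 had an r of at least 0.8 with the globins (23.5%), where 19 of all tested genes had one (0.167%, the 3 globins themselves counted). The other members of that list with such an r were ANK1 and EPB41, which encode the ankyrin and protein 4.1 of the red cell skeleton, at 0.874 and 0.871. CA2, RHAG, ANK1 and EPB41 were, like the globins, highest in control replicate 5 and lowest in control replicate 3. Their r with the globins was not computed without these libraries and may rest largely on them. No tested gene of the thrombocyte, macrophage, endothelial, heme or blood transcription factor lists reached 0.8, the highest in the thrombocyte list being 0.680. With 0.167% of all tested genes at that level, lists of this size would seldom hold one, so this sets no cell type apart.

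Although these red cell genes tracked the globins within groups when all libraries were taken, they were not higher with PAPA-NONOate. ANK1 had 1.66, 1.71, 1.27, 2.76 and 3.19 FPKM in PAPA-NONOate replicates 2, 3, 4, 5 and 8, against 5.34, 2.59, 3.98, 6.92 and 3.44 FPKM in controls. Only control replicate 3 reached down into the treated range. It fell by 0.91 on the log2 scale (SE 0.26, limma adjusted p = 0.0494), a call lost after median-ratio scaling (log2 fold change -0.75, adjusted p = 0.0806) and without control replicate 5 (adjusted p = 0.0954), with a range of 0.0306 to 0.135 over its alternatives. SLC4A1, the band 3 anion exchanger, was at 19.1 ± 8.31 FPKM with PAPA-NONOate and 26.8 ± 9.66 FPKM in controls (SD, n = 5 each), a log2 fold change of -0.49 (limma adjusted p = 0.325). For CA2 the levels were 61.4 ± 8.82 FPKM with PAPA-NONOate and 74.6 ± 30.6 FPKM in controls, a log2 fold change of -0.20 (adjusted p = 0.626). RHAG and EPB41 were at log2 fold changes of -0.21 (adjusted p = 0.704) and -0.35 (adjusted p = 0.356). Per 100 FPKM of HBBA, ANK1 stood at 0.153 to 0.210 with PAPA-NONOate and at 0.333 to 0.758 in controls, without overlap. Such a lower ratio was found for 121 of all tested genes (1.07%) and for 2 of the 17 in the red cell list, ANK1 and CD36. Since genes that do not follow HBBA tend to overlap in this ratio, that share is no like background for ANK1. SLC4A1 per 100 FPKM of HBBA was 1.03 to 2.24 with PAPA-NONOate and 1.75 to 4.13 in controls, so that these 2 groups overlapped at control replicate 5.

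**Figure D4:**
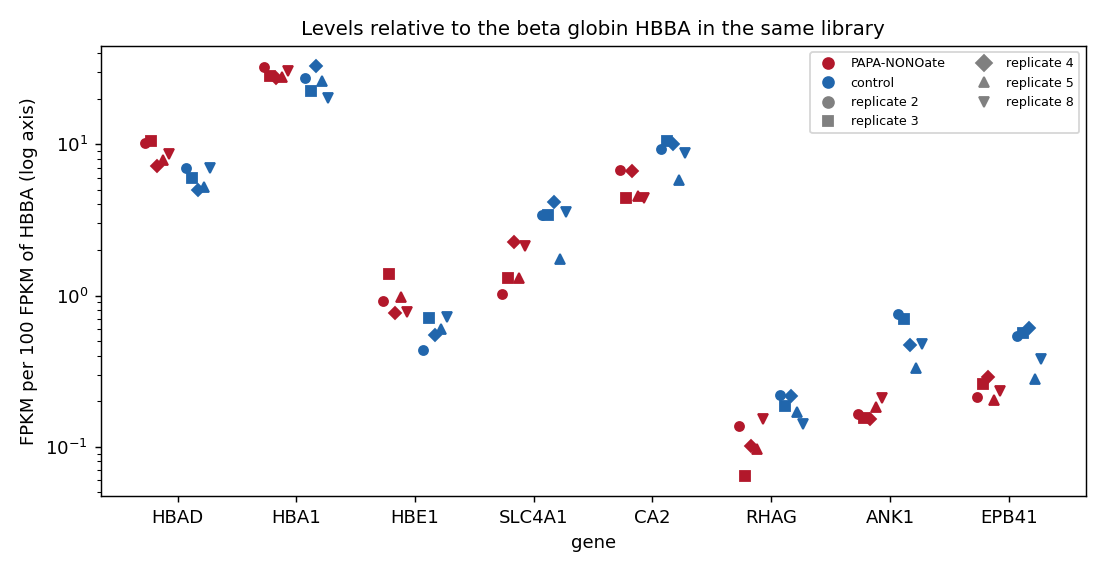
FPKM of 8 genes per 100 FPKM of HBBA in the same library (log axis), PAPA-NONOate left of control for each gene, 1 symbol per replicate number. HBAD and HBE1 are higher and ANK1 lower in all treated libraries than in any control, while the other 5 genes overlap.

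The whole list of red cell membrane and maturation genes had a median log2 fold change of -0.21, beside -0.18 for all tested genes. Of its 17 tested members 1 rose, 2 fell and 14 did not pass, where 9.34% of all tested genes were called. Without control replicate 5 ANK1 was not called, which leaves 1 lower. Besides ANK1, CD36 fell, a fatty acid and scavenger receptor that macrophages and endothelium also carry, at 2.29 ± 0.522 FPKM with PAPA-NONOate and 14.7 ± 3.40 FPKM in controls (SD, n = 5 each). GYPC, glycophorin C, which many cell types make, rose to 135 ± 19.6 FPKM with PAPA-NONOate, against 92.3 ± 11.5 FPKM in controls, with a log2 fold change of 0.55 (limma adjusted p = 0.0255). The call of GYPC passed in 19 of its 24 settings, within 0.00366 to 0.0649 over its alternatives. Its groups did not overlap, as for the 1.84% of tested genes that were higher in this way. Its r with the globins was 0.181. BPGM, the enzyme that makes the bisphosphoglycerate of red cells, was at 20.5 ± 8.41 FPKM with PAPA-NONOate and 37.3 ± 10.7 FPKM in controls (adjusted p = 0.0575). ALAS2, EPOR, KLF1 and NFE2 were matched by no name and not analysed here, and the red cell factor gene GFI1B was at most 0.302 FPKM (control replicate 2).

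Heme is the group that globins carry. Of 19 tested genes of heme synthesis, transport and breakdown 0 rose, 2 fell and 17 did not pass, with a median log2 fold change of -0.31, a share of calls near the 9.34% of all tested genes. Those called lower were both heme transporters, SLC48A1 at 25.8 ± 2.38 FPKM with PAPA-NONOate and 42.6 ± 11.3 FPKM in controls (log2 fold change -0.68, limma adjusted p = 0.0216) and FLVCR1 (-0.68, adjusted p = 0.0483, which passed in 9 of its 24 settings and not without control replicate 5, at 0.0594). ALAS1, the rate-limiting step of heme synthesis outside red cells, was at 0.28 on the log2 scale (adjusted p = 0.244) but passed after median-ratio scaling (0.47, adjusted p = 0.0231). HMOX1, the inducible heme oxygenase that breaks heme down, was at 223 ± 82.5 FPKM with PAPA-NONOate and 132 ± 16.9 FPKM in controls (SD, n = 5 each), without overlap, a log2 fold change of 0.69 (limma adjusted p = 0.0612, or 0.0466 after median-ratio scaling, within 0.0208 to 0.123 over its alternatives). EIF2AK1, the heme-regulated kinase that limits globin translation, had one of -0.33 (adjusted p = 0.199).

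TUBB1, in chicken the divergent beta tubulin of the marginal band of red cells and thrombocytes (ENSGALG00000007447), was lower with PAPA-NONOate. It had 2.82, 3.66, 3.29, 2.92 and 3.62 FPKM in PAPA-NONOate replicates 2, 3, 4, 5 and 8, against 4.55, 4.68, 5.01, 6.39 and 4.81 FPKM in controls. The groups did not overlap, as for 9.32% of tested genes, and control replicate 5 was again the highest. TUBB1 averaged 3.26 ± 0.387 FPKM with PAPA-NONOate and 5.09 ± 0.749 FPKM in controls (SD, n = 5 each), a log2 fold change of -0.57 (SE 0.14, 95% interval -0.87 to -0.26, limma adjusted p = 0.0254). Relative to the median gene its value was -0.39. The call was lost after median-ratio scaling (log2 fold change -0.40, adjusted p = 0.0955) and quantile normalization (adjusted p = 0.198), and without PAPA-NONOate replicate 4 (0.0511), control replicate 4 (0.0584) or control replicate 5 (0.0516), within 0.0178 to 0.198 over all alternatives.

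The other tubulins, which most cells make, did not pass. Of 10 tested tubulin genes 0 rose and 0 fell, where 9.34% of all tested genes were called. Their median log2 fold change was -0.15. The lowest adjusted p-values were those of TUBA3E (log2 fold change -0.56, adjusted p = 0.0593, or 0.0105 without control replicate 5) and TUBA1B (-0.51, adjusted p = 0.0752, or 0.0155 without it), while the most abundant, TUBB, was at 844 ± 116 FPKM with PAPA-NONOate and 871 ± 133 FPKM in controls (SD, n = 5 each). By the deviations within groups the genes most like TUBB1 were ST14 (r = 0.757), SYBU (0.743), ABCB10 (0.738), GANC (0.736) and FBXL22 (0.733). ABCB10 is a mitochondrial transporter of the heme pathway. These values are lower than the highest for the globins.

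F13A1 showed the largest difference of the 6 genes. The factor XIII A subunit is a transglutaminase that cross-links fibrin, carried in mammals by platelets and by macrophages. F13A1 (ENSGALG00000012802) had 0.0353, 0.403, 0.439, 0.517 and 0.284 FPKM in PAPA-NONOate replicates 2, 3, 4, 5 and 8, against 2.18, 1.41, 2.58, 1.998 and 1.34 FPKM in controls. The groups did not overlap, and no treated library came near the lowest control. It averaged 0.336 ± 0.188 FPKM with PAPA-NONOate and 1.902 ± 0.525 FPKM in controls (SD, n = 5 each), and fell by 1.53 on the log2(FPKM + 0.5) scale (SE 0.25, 95% interval -2.06 to -0.9995, limma adjusted p = 0.0028). It passed the filter only through the controls. All but 1 of the treated values are under the pseudocount, so the size depends on it: the log2 fold change was -2.33 with a pseudocount of 0.1 and -1.11 with 1. With no filter on low values, where its entry did not depend on the controls, the adjusted p was 0.00575.

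Some macrophage and lymphocyte markers were also lower with PAPA-NONOate, and their part in the result for F13A1 was not tested. Of 20 tested macrophage and myeloid markers 0 rose, 7 fell and 13 did not pass, with a median log2 fold change of -0.68. Among all tested genes 7.41% were called lower, with a median of -0.18, and no difference between lists was tested. The summed FPKM of the macrophage list was 460 to 1177 with PAPA-NONOate and 1243 to 1724 in controls. CYBB, a subunit of the phagocyte oxidase, was at a log2 fold change of -1.81 (limma adjusted p = 0.000296), PTPRC, the common leukocyte antigen, of -1.05, SPI1, the myeloid transcription factor, of -0.76 and C1QB, of complement, of -1.48. Of the 20 tested markers 19 had a negative log2 fold change. The 1 with a positive value was MRC1, at 16.6 ± 3.79 FPKM with PAPA-NONOate and 12.9 ± 2.04 FPKM in controls (SD, n = 5 each). Its log2 fold change was 0.33 (limma adjusted p = 0.219, or 0.0416 after median-ratio scaling). After that scaling 1 macrophage marker was called higher and 7 lower. None of the 23 markers found by name was at 0 in all libraries. Lymphocyte markers were low: of 16 found by name 10 did not reach the filter. The summed FPKM of the 16 was 15.8 to 30.2 with PAPA-NONOate and 29.0 to 54.6 in controls. Of the 6 tested lymphocyte markers 4 fell, PTPRC, which is in both lists, among them, with CD3E at a log2 fold change of -1.34. Without control replicate 5 the number lower was 3. Markers near the filter can enter it through the controls, so nothing is read from this count. By contrast, the other transglutaminases did not pass: TGM2, which many tissues make, was at 34.4 ± 11.1 FPKM with PAPA-NONOate and 48.6 ± 13.5 FPKM in controls (SD, n = 5 each, adjusted p = 0.172), and TGM4 had a log2 fold change of 0.13. F13B, the partner subunit, and the fibrinogen genes, all made mainly by liver, stayed under 1 FPKM in all libraries.

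Thrombocyte genes had log2 fold changes of both signs. Of 21 tested genes of thrombocyte surface, granules and signalling 1 rose, 3 fell and 17 did not pass. Their median log2 fold change was -0.22, and 9.34% of all tested genes were called. ITGA2B, the integrin alpha IIb chain that defines this lineage, had 0.128, 0.905, 1.28, 1.06 and 0.867 FPKM in PAPA-NONOate replicates 2, 3, 4, 5 and 8, against 2.003, 1.33, 2.20, 2.70 and 2.24 FPKM in controls. Every treated library was lower than any control, though control replicate 3 lay just above PAPA-NONOate replicate 4. It fell by 1.002 on the log2 scale (SE 0.28, limma adjusted p = 0.0428). That call was lost after median-ratio scaling (adjusted p = 0.0503) and without control replicate 5 (0.0843), within 0.0315 to 0.0881 over its alternatives. Like F13A1, ITGA2B passed the filter through the controls, and with no filter its limma adjusted p was 0.0796. ITGB3, its partner chain that endothelium and other cells also make, was at 20.0 ± 1.79 FPKM with PAPA-NONOate and 19.5 ± 2.82 FPKM in controls (adjusted p = 0.844). GP9, of the receptor for von Willebrand factor, was at 1.62 ± 0.684 FPKM with PAPA-NONOate and 1.62 ± 0.632 FPKM in controls (SD, n = 5 each), that is a log2 difference of -0.01 (95% interval -0.61 to 0.58). GP5, of the same list, went the other way, at 1.253 to 1.61 FPKM with PAPA-NONOate and 0.868 to 1.251 FPKM in controls. The groups did not overlap, as for the 1.84% of tested genes that were higher in this way. Its log2 fold change was 0.36 (limma adjusted p = 0.195, against 0.0310 to 0.331 over its alternatives). GP5 passed the filter through the treated libraries, and with no filter its limma adjusted p was 0.164.

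The other genes of that list that passed are not particular to thrombocytes. CD9, a tetraspanin, was at a log2 fold change of -1.63 (limma adjusted p = 0.0028), and PTGS1, the constitutive cyclooxygenase, at -1.59 (adjusted p = 0.0123). PTGS1 too passed the filter through the controls, and with no filter its limma adjusted p was 0.0374. THBS1, a thrombospondin of platelet granules that stromal cells also secrete, rose to 115 ± 21.8 FPKM with PAPA-NONOate, against 48.8 ± 11.7 FPKM in controls (SD, n = 5 each; log2 fold change 1.24, adjusted p = 0.00194). By deviations within groups F13A1 was most like KDM2A (r = 0.965), HSPG2 (0.949), IKZF4 (0.948), KANSL1 (0.945) and LENG8 (0.931), none of them in the lists used here. Among 19 genes of the lists set against it, the highest r were those of GP9 (0.856), GATA2 (0.812), PLEK (0.809) and ITGA2B (0.769), and the macrophage genes MARCO, CYBB and C1QB had 0.499, 0.480 and 0.231. The share of all tested genes with such r was not counted, so these values set no cell type apart. Most treated values of F13A1 lie under the pseudocount, which limits its deviations there. PAPA-NONOate replicate 2, where F13A1 was lowest, also had the lowest summed FPKM, 394921. Without that library the log2 fold change of F13A1 was -1.38 (limma adjusted p = 0.00399). GP9, GATA2, PLEK, ITGA2B, MARCO, CYBB and C1QB were lowest there too, and their r with F13A1 was not computed without it. For F13A1 and TAL1 r was 0.753, and 0.415 without PAPA-NONOate replicate 2 and control replicate 8.

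**Figure D5:**
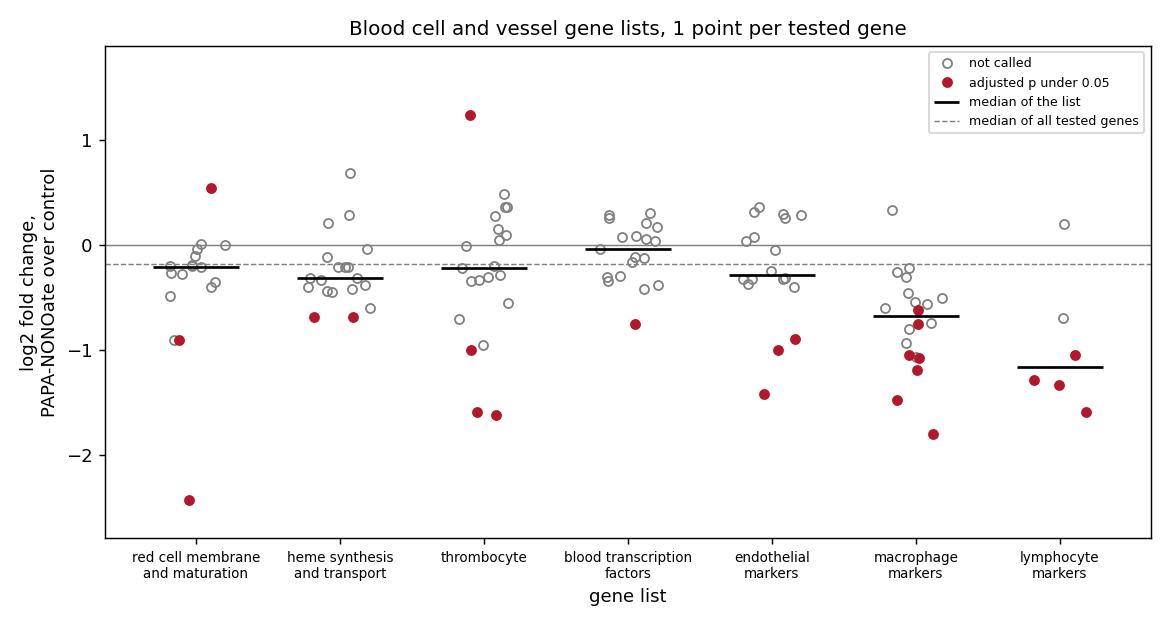
Log2 fold change, PAPA-NONOate over control, of each tested gene in 7 lists (1 point per gene, filled where the adjusted p was under 0.05, horizontal jitter only for legibility), with the median of each list and of all tested genes (dashed, -0.18). Called were 3 of 17 red cell, 2 of 19 heme, 4 of 21 thrombocyte, 1 of 19 transcription factor, 3 of 18 endothelial, 7 of 20 macrophage and 4 of 6 lymphocyte genes, where 9.34% of all tested genes were called and no difference between lists was tested. Of 16 lymphocyte markers found by name 10 did not reach the filter, and nothing is read from the count of that list. PTPRC is in the macrophage and the lymphocyte list, and SPI1 in the transcription factor and the macrophage list. LMO2 and ERG are in the transcription factor and the endothelial list, and VWF is in the thrombocyte and the endothelial list.

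TAL1 (ENSGALG00000023296), a basic helix-loop-helix factor of the red cell, megakaryocyte and endothelial lineages, did not differ beyond its spread. It had 31.7, 42.4, 54.0, 43.4 and 56.1 FPKM in PAPA-NONOate replicates 2, 3, 4, 5 and 8, against 40.1, 35.1, 51.8, 42.6 and 34.8 FPKM in controls. Both the lowest and the highest library were treated ones, replicates 2 and 8. It averaged 45.5 ± 9.84 FPKM with PAPA-NONOate and 40.9 ± 6.97 FPKM in controls (SD, n = 5 each), a log2 fold change of 0.14 (95% interval -0.22 to 0.50, limma adjusted p = 0.612), and 0.33 after median-ratio scaling (adjusted p = 0.157, against 0.135 to 0.859 over its alternatives). TAL1 did not follow the globins within groups, with an r of 0.309 against HBBA, and its deviations were most like those of SERTAD2 (r = 0.963), BEND7 (0.961), KIAA1671 (0.960), N4BP3 (0.948) and SORBS2 (0.944). Of 19 genes set against it, TAL1 had its highest r with PLEK (0.825) of the thrombocyte list and SLC4A1 (0.794) of red cells. The endothelial genes PECAM1 (0.788) and CDH5 (0.774) followed, then GP9 (0.768). Values were lower with its partners LMO2 (0.574) and GATA2 (0.508). In FPKM, PLEK, SLC4A1, GP9, LMO2 and GATA2 were, like TAL1, lowest in PAPA-NONOate replicate 2, which had the lowest summed FPKM. By deviation from its group mean SLC4A1 was lowest in control replicate 3 (-0.98), and at -0.76 in PAPA-NONOate replicate 2. These r were not computed without PAPA-NONOate replicate 2 or control replicate 3. The share of all tested genes with such r was not counted, so they set no cell type apart.

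Partners of TAL1 and other blood transcription factors were tested as 1 list. Of 19 tested genes 0 rose, 1 fell and 18 did not pass, where 9.34% of all tested genes were called, with a median log2 fold change of -0.04. The gene that fell was SPI1, of the macrophage markers above. LMO2, the bridging subunit of the TAL1 complex, was at 163 ± 41.5 FPKM with PAPA-NONOate and 131 ± 16.5 FPKM in controls (SD, n = 5 each), a log2 fold change of 0.29 (limma adjusted p = 0.305) that passed after median-ratio scaling (0.47, adjusted p = 0.0300). GATA2, the GATA factor of progenitors and endothelium, was at 20.9 ± 9.59 FPKM with PAPA-NONOate and 18.3 ± 3.80 FPKM in controls (adjusted p = 0.884). The endothelial list, which shares LMO2 and ERG with this one, had 0 higher, 3 lower and 15 not called of 18 tested, with a median of -0.28. Its 3 called members were CD34 (log2 fold change -1.43), NOS3, the endothelial nitric oxide synthase (-1.003), and TEK, the angiopoietin receptor (-0.89). Without control replicate 5 none of the 18 was called. After median-ratio scaling 798 of all 11357 tested genes were called higher and 731 lower. In the lists 4 of 18 endothelial, 4 of 21 thrombocyte, 2 of 19 heme and 2 of 19 transcription factor genes were higher. Called lower were 3, 2, 2 and 1, and no difference from all tested genes was tested. Among the genes called higher, LMO2 and ERG count in both the endothelial and the transcription factor list. VWF counts in both the endothelial and the thrombocyte list.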

How the data were processed

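Poly(A) RNA of whole choroid was sequenced from strand-specific libraries made from TRIzol extracts, per the labels. The authors deposited 1 table of FPKM values, with Cufflinks and SAMtools and the build GRCg6a named in the submitters' processing notes (no versions, aligner or annotation release named). A placeholder value, at 14 places in 10 genes, was read as a failed estimate, and these genes were left out of the fits. None of the 6 genes described held it, and none shared its name with another row.

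Computed here: limma 3.58.1 run in R 4.3.3, fitted to log2(FPKM + 0.5) with the trend option, PAPA-NONOate over control, for genes with at least 1 FPKM in at least 5 libraries (8 residual and 4.83 prior degrees of freedom). It was tested on simulated data. FPKM per length allow levels of genes to be compared. Libraries left out in turn were tested on the same 11357 genes. Lists (15, with 220 of 301 symbols found) were described by counts and medians without a set test. Named are up to 4 called genes of a list by adjusted p, or 2 where none was called, lineage genes (1 is not reported here), and the 5 genes most alike. Ratios to HBBA, likeness to TUBB1 and TAL1 and by list, neighbours and the genes RHAG, CA2, EPB41, BPGM, EIF2AK1, ALAS1, PECAM1, CDH5, RPE65, HMOX1, PLEK, MARCO and TUBB were chosen after values were seen. GP5 and MRC1 were also named after values were seen. The genes and lists were chosen with earlier results of these data known. Figures were drawn with matplotlib 3.10.9.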

Additional observations from a re-analysis of the deposited data

Results flagged for a closer look

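The 14 sets of 5 libraries were the 6 genes and HBE1, each in both groups. In 3 of 14 sets 1 library lay far from the rest in FPKM, by the gap to its neighbour over the range. Chance gives about 1 in 20 if FPKM are normally distributed. All 3 were control replicate 5: 2078 FPKM for HBBA, 6.39 FPKM for TUBB1 and 12.5 FPKM for HBE1, each the highest control. HBBA and HBE1 moved together across libraries, so these are not independent. The same library had the lowest summed FPKM of the controls (470676).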

How the results depend on the processing

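F13A1 kept its call and direction in 22 limma alternatives (which it entered, but for the one without a filter, through the controls alone), and HBA1, HBBA and TAL1 their direction without a call in 23 each. HBAD was called in 6 of 23 and TUBB1 in 13 of 22. Log2 fold changes of HBAD and TUBB1 that crossed the threshold were 1.26 and -0.40 after median-ratio scaling. TUBB1 was also lost after quantile normalization (-0.32), with libraries scaled to an equal sum (-0.45) and with equal sums without globins (-0.42), and HBAD gained with library weights (1.31). The exact two-sided permutation test on single genes gave p = 0.0238 for HBAD (1.08) and 0.00794, the smallest it can give, for TUBB1 and F13A1 (unadjusted, n = 5 per group). With 1 library left out HBAD ran from 0.80 to 1.37 and TUBB1 from -0.61 to -0.49.

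Under a replicate block HBAD passed (1.08, adjusted p = 0.0380) and TUBB1 did not (-0.57, adjusted p = 0.0706); with median-ratio scaling as well the values were 1.26 and -0.40. The block called 893 genes. Deviations of same-numbered libraries correlated at -0.0229 to 0.303, over 0.1 in 3 of 5 pairs, and 6 of 10 libraries were closest to their own number. The numbers were not taken as pairs, because not every pair was over 0.1 and the labels name no shared animal. Whether they are pairs remains unknown, and the calls of HBAD and TUBB1 depend on it.

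Neither TUBB1 nor F13A1 was tested with a filter at 5 FPKM. Genes called numbered 605 with a filter at 5 FPKM (449 lower), 1807 with library weights (383 higher, 1424 lower) and 1856 with the block and median-ratio scaling (939 higher). Calls higher were 798 after median-ratio scaling, 733 after quantile normalization, 618 with equal sums and 623 with equal sums without globins. With 1 library left out calls ran from 604 (without control replicate 2) to 1813 (without PAPA-NONOate replicate 5), 158 to 254 of them higher and 429 to 1580 lower. Absolute depth is unknown, which limits what the values of F13A1 under 1 FPKM can show.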
